A study of Canis lupus familiaris with 23 samples.

Results

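Osteosarcomas of dogs were compared by their level of MMP9, the gelatinase that osteoclasts and other cells secrete to cleave matrix. Of 23 samples on 1 type of Affymetrix canine array, 15 were osteosarcomas of pet dogs labelled as tumors, and these were ranked by the log2 value of the brightest MMP9 probe set. The 5 highest were called MMP9-high and the 5 lowest MMP9-low, and the 5 tumors between them are given for comparison. The other 8 samples were a pair of osteosarcoma lines grown in culture and organs of research-colony dogs (kidney, liver and lymph node, 2 of each). Per the study's methods the tumors were primary and were removed at surgery before any chemotherapy, and the labels give no age, sex, grade or tumor site. The tumors carry no experimental treatment and no altered allele, and normal bone was not among the samples. Tumors are numbered in the order of their submission, and the number has no other meaning. Each tumor was 1 piece of tissue on 1 array, so its RNA came from malignant cells, osteoclasts, other stroma and any adjacent tissue together. In such samples a larger number of cells of a type and more RNA per cell cannot be told apart.

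Osteoclasts are large cells with many nuclei, formed by fusion of precursors of the monocyte lineage, and they are the cells that resorb bone. They seal off a space on the bone surface, pump protons into it through a vacuolar proton pump to dissolve mineral, and release proteases, of which cathepsin K digests collagen. Osteosarcomas contain osteoclasts in varying number, because signals from tumor cells and osteoblasts, above all RANK ligand, recruit and mature them.

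Since the groups were chosen by the MMP9 value, MMP9 is given as a description with no test. On the log2 scale it was 12.98, 12.87, 12.68, 12.46 and 12.20 in MMP9-high tumors 10, 7, 6, 9 and 12, against 10.46, 9.49, 8.04, 7.48 and 6.31 in MMP9-low tumors 3, 11, 8, 5 and 2. The means were 12.64 ± 0.316 and 8.354 ± 1.64 (SD, n = 5 each). MMP9-high tumors lay close together and MMP9-low tumors spread over more than 4 log2 units. The tumors between held 10.47 to 12.12. The borders were narrow, since tumor 12 lay 0.0757 above the next tumor and tumor 3 lay 0.0109 below its neighbour. The 6 normal samples held 4.67 to 6.83 and the cell lines 4.91 and 4.13. The other MMP9 probe sets stayed between 3.84 and 4.89 in all 15 tumors, and the groups differed by 0.283 and 0.123 on them. The ranking therefore rests on 1 probe set.

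**Figure D1:**
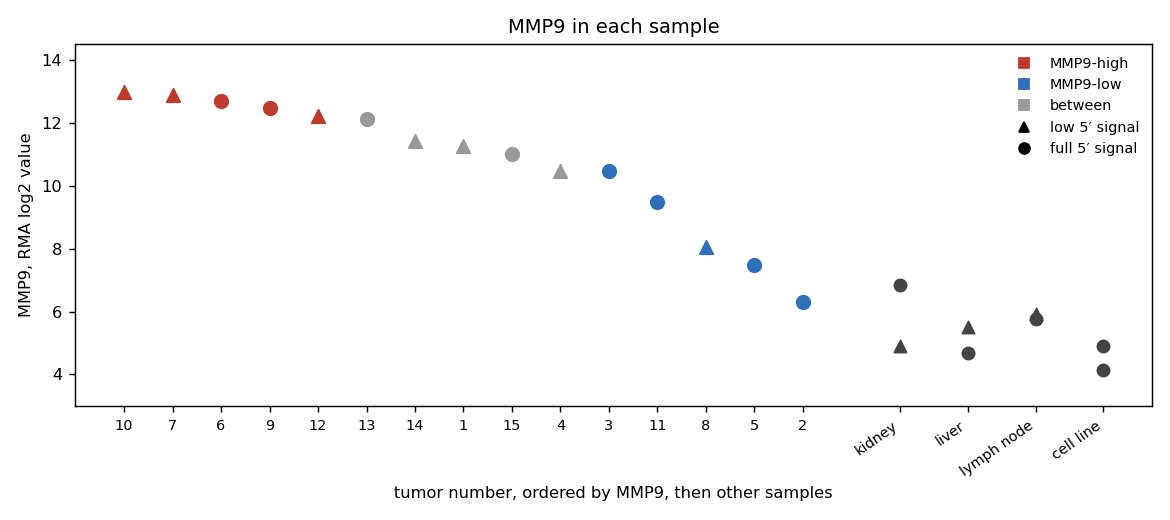
RMA log2 value of MMP9 (y axis) in each of the 15 tumors, ordered by that value, and in the normal samples and cell lines (x axis). Red is MMP9-high, blue MMP9-low and grey the tumors between, and triangles mark arrays with low 5′ signal. MMP9-high tumors lie between 12.20 and 12.98 and MMP9-low tumors between 6.31 and 10.46.

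Arrays differed in how well the 5′ ends of transcripts were recovered. The 5′ index is the mean excess of the 3′ over the 5′ probe sets of beta-actin and Gapdh, and a large value marks RNA or labelling that lost 5′ sequence. It averaged 2.27 ± 1.85 in MMP9-high tumors and 0.896 ± 1.57 in MMP9-low tumors (SD, n = 5 each; exact permutation test, two-sided p = 0.27, where 0.00794 is the smallest p that 252 regroupings allow). An index above 1.5, called low 5′ signal here, was found in 3 of 5 MMP9-high tumors (10, 7 and 12) and 1 of 5 MMP9-low tumors (8). A spiked bacterial poly-A control, Dap, averaged 4.11 ± 1.3 in MMP9-high tumors and 6.42 ± 2.05 in MMP9-low tumors (exact permutation p = 0.0635). Among the MMP9-low tumors, tumor 5 stood apart by genes of other tissues. The mean level of 21 skeletal muscle genes was 4.84 to 5.10 in MMP9-high tumors, 9.12 in tumor 5 and 4.77 to 5.62 in the other MMP9-low tumors. The mean of 7 adipocyte genes was 5.16 to 5.75 in MMP9-high tumors, 8.07 in tumor 5 and 5.27 to 6.47 in the other MMP9-low tumors.

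MMP9-high tumors had higher levels of an osteoclast subunit of the proton pump, of the lysosomal protein CD68, and of DPP4, HYAL1, SPINK2 and ELMOD3. Of 23833 probe sets tested with limma, 11 were higher in MMP9-high tumors after Benjamini-Hochberg adjustment, a share of 0.0462%, and 0 were lower (0%). At an unadjusted p under 0.05, limma gave 1161 probe sets higher and 707 lower. Counted by gene, with 6539 genes each represented by its brightest probe set, 415 (6.35%) had such a p and were higher and 274 (4.19%) lower. The groups did not overlap for 87 genes higher (1.33%) and 44 lower (0.673%). The median difference of all genes was 0.021 on the log2 scale, and 3503 of the 6539 genes had a positive difference. The count of calls rested on single tumors and on the model. It was 0 without tumor 10, 6, 11, 8, 5 or 2, 1 without tumor 7 or 12, 4 without tumor 9, and 14 higher and 6 lower without tumor 3. It was also 0 with the 5′ index as a covariate, where adjusted p was 0.0825 to 0.108 over the 11 probe sets, which all kept their sign.

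ATP6V0D2 is a subunit of the membrane sector of the proton pump and in mice is needed for the fusion of osteoclast precursors. Its log2 values were 10.14, 10.22, 9.94, 8.98 and 8.85 in MMP9-high tumors 10, 7, 6, 9 and 12, against 6.30, 6.14, 3.90, 3.69 and 4.0 in MMP9-low tumors 3, 11, 8, 5 and 2. The groups were apart by more than 2 log2 units, and the MMP9-low tumors split into tumors 3 and 11, which kept some signal, and tumors 8, 5 and 2, which were near the level of liver and lymph node (3.35 to 3.58). The difference was 4.82 ± 0.59 (SE), 28.3-fold, with a limma adjusted p of 0.0412. All 5 tumors between lay between the groups, at 6.80 to 8.14. Normal kidney, whose tubules also acidify through this pump, held 7.09 and 7.65, and the cell lines 3.62 and 3.19. With the 5′ index as a covariate the difference was 4.89 ± 0.67 (adjusted p = 0.0825), and over 22 alternatives adjusted p ranged from 4.49e-05 to 0.508 with the same sign in 22.

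CD68, a heavily glycosylated protein of lysosome membranes in macrophages and osteoclasts, had values of 11.63, 11.18, 10.77, 10.73 and 10.25 in the MMP9-high tumors in the same order, against 8.79, 8.09, 7.68, 6.37 and 7.48 in the MMP9-low tumors. It was higher by 3.23 ± 0.42 (9.38-fold, adjusted p = 0.0454), and the difference was 3.15 ± 0.48 with the covariate (adjusted p = 0.108, range over 22 alternatives 0.00138 to 0.508). The cell lines held 5.24 and 5.02, and lymph node 8.66 and 8.15. Every MMP9-high tumor was above both lymph nodes, and 1 MMP9-low tumor (3) was.

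DPP4, a surface dipeptidase that trims hormones and chemokines, was 11.87, 10.57, 10.81, 9.73 and 9.58 in MMP9-high tumors, against 7.52, 7.07, 5.71, 6.94 and 6.18 in MMP9-low tumors. It was higher by 3.83 ± 0.48 (14.2-fold, adjusted p = 0.0412), and by 3.95 ± 0.54 with the covariate (adjusted p = 0.0825, range over 22 alternatives 0.00138 to 0.505). Its other probe set differed by 0.12. The kidney samples, where DPP4 lines the proximal tubule, held 9.86 and 10.79, and MMP9-high tumors 10, 7 and 6 were above the lower of these.

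HYAL1, the hyaluronidase of lysosomes, was 8.63, 8.61, 7.95, 7.83 and 7.54 in MMP9-high tumors, against 6.20, 6.31, 6.31, 5.77 and 5.67 in MMP9-low tumors. The difference was 2.06 ± 0.24 (4.18-fold, adjusted p = 0.0412; 0.0825 with the covariate, range over 22 alternatives 0.0042 to 0.335). SPINK2, an inhibitor of serine proteases, was 9.11, 8.32, 8.90, 7.91 and 9.14 in MMP9-high tumors, against 6.47, 6.47, 6.22, 5.47 and 6.72 in MMP9-low tumors. Its difference was 2.41 ± 0.30 (5.31-fold, adjusted p = 0.0412; 0.0827 with the covariate, range 0.0155 to 0.508). For both genes the groups did not overlap. The order within the MMP9-low tumors differed, since tumor 2, the lowest for MMP9 and HYAL1, was the highest of them for SPINK2.

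ELMOD3, which holds an ELMO domain and acts on small GTPases, differed least of the called genes. It was 7.39, 7.59, 7.42, 7.66 and 7.62 in MMP9-high tumors, against 6.86, 6.92, 6.73, 6.83 and 6.80 in MMP9-low tumors, a difference of 0.71 ± 0.08 (1.63-fold, adjusted p = 0.0412; 0.0825 with the covariate, range over 22 alternatives 0.0452 to 0.505). The other ELMOD3 probe set differed by only 0.11. Of the tumors between, 2 to 5 lay in the gap between the groups for the other named calls, and 0 for ELMOD3. There their values were 6.63 to 8.23, and their mean of 7.76 was above that of MMP9-high tumors. The other 5 called probe sets have no gene symbol in the annotation used. The lowest adjusted p of all, 0.0162, was for 1590978_at, with 7.65, 8.23, 7.62, 7.56 and 7.13 in MMP9-high tumors, against 5.67, 5.52, 5.91, 5.51 and 5.55 in MMP9-low tumors (difference 2.01 ± 0.18, 4.02-fold). The remaining 4 differed by 1.04 to 3.80.

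No probe set was called lower, so the 10 genes with the smallest p in that direction are given as values. VWF, a clotting factor of endothelium, was 7.08, 6.10, 6.11, 6.55 and 6.01 in MMP9-high tumors, against 7.16, 8.47, 8.08, 8.77 and 7.69 in MMP9-low tumors (-1.66 ± 0.32, adjusted p = 0.179, range over 22 alternatives 0.0599 to 0.552). Its groups did not overlap, although tumor 10 came close to tumor 3. RAB8B, a GTPase of vesicle transport, differed by -1.14 ± 0.22, the metallothionein MT2A by -1.93 ± 0.43 and the muscle LIM protein FHL1 by -2.29 ± 0.52. RPL7 (-0.54 ± 0.11), SCP2 (-0.56 ± 0.12), FASTKD1 (-0.63 ± 0.13), GMEB1 (-0.40 ± 0.09), TSNAX (-0.46 ± 0.10) and NRCAM (-0.51 ± 0.11) differed less, and adjusted p of the 10 was 0.179 to 0.273. Several were dim in both groups, with MMP9-high and MMP9-low means of 4.41 and 5.04 for FASTKD1, 4.19 and 4.58 for GMEB1, 3.31 and 3.78 for TSNAX and 3.72 and 4.23 for NRCAM. The array median averaged 4.85 and 4.87.

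**Figure D2:**
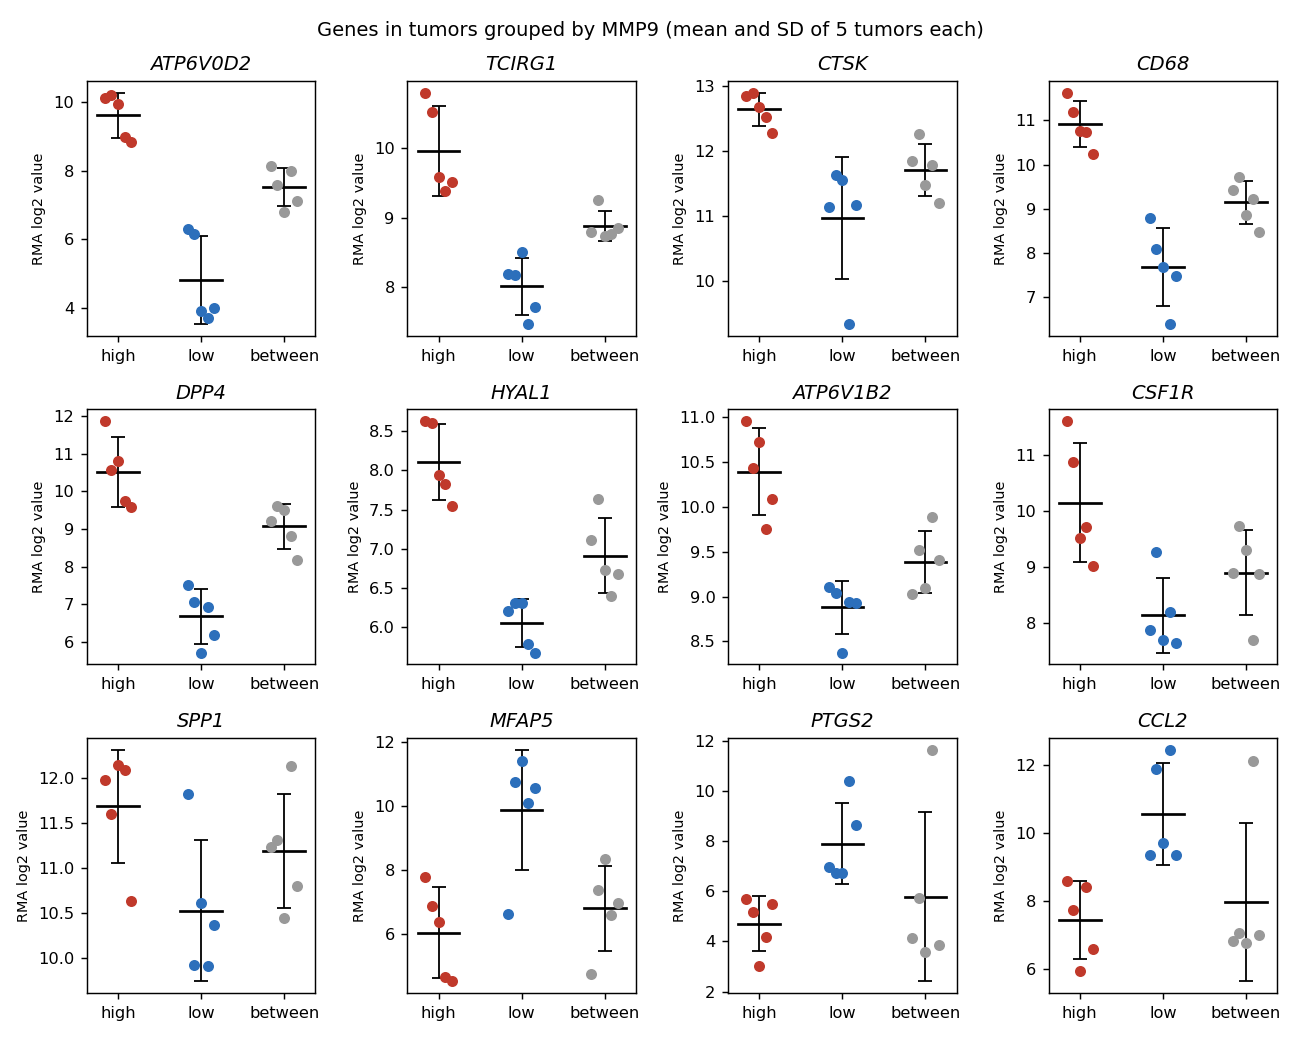
RMA log2 value of 12 genes (y axes) in MMP9-high, MMP9-low and in-between tumors (x axes), 1 point per tumor, with the mean as a bar and the SD as whiskers (n = 5 tumors each). ATP6V0D2, CD68, DPP4 and HYAL1 were called, the other genes were not, and the groups do not overlap for ATP6V0D2, TCIRG1, CTSK, CD68, DPP4, HYAL1 and ATP6V1B2, nor for PTGS2 and CCL2 in the opposite direction.

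The name of these tumors as rich or poor in osteoclasts was set beside a list of osteoclast marker genes. That list was chosen with earlier results of these data known, so it is a description and no independent check of the name. Besides MMP9, 10 of the 22 listed genes were measured by a probe set with 1 symbol. Of these, 1 was called higher (ATP6V0D2), against 6 of all 6539 genes, and 8 had a positive difference (against 3503 of 6539). In limma 4 had an unadjusted p under 0.05 and were higher (against 6.35% of all genes). For 3 the groups did not overlap (against 1.33%). The median difference was 0.72, against 0.021 for all genes, and it ran from 0.45 without tumor 6 to 0.92 without tumor 7. The mean level of the 10 genes was 7.47 to 8.50 in MMP9-high tumors and 6.27 to 7.14 in MMP9-low tumors. The groups were apart for ATP6V0D2, TCIRG1 and CTSK and overlapped for the other 7, among them CA2, CLCN7 and SNX10, which also act in resorption, so the name osteoclast-rich holds for part of the list. Of the 7, CLCN7, TNFRSF11A and ITGB3 were dim, with group means of 4.22 to 5.62, and such probe sets show little of any difference.

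TCIRG1, the pump subunit whose loss in people causes osteopetrosis, was 10.81, 10.52, 9.59, 9.39 and 9.52 in MMP9-high tumors, against 8.18, 8.17, 8.50, 7.45 and 7.71 in MMP9-low tumors. Its groups were apart, and the difference was 1.96 ± 0.32, but limma's adjusted p was 0.123 (0.0123 to 0.505 over 22 alternatives, with the lowest when all 15 tumors share the estimate of the spread). The other TCIRG1 probe set differed by only 0.07. CTSK, the cathepsin that digests collagen in the resorption space, was 12.85, 12.90, 12.68, 12.53 and 12.28 in MMP9-high tumors, against 11.14, 11.64, 11.55, 9.34 and 11.17 in MMP9-low tumors. All MMP9-high tumors were above all MMP9-low tumors. The difference of 1.68 ± 0.40 had an adjusted p of 0.289, and it was 1.27 without tumor 5, the lowest (adjusted p = 0.0806, range over 22 alternatives 0.0806 to 0.586). Every tumor but that one was above the cell lines (10.43 and 8.82) and all normal samples (7.02 to 9.69) for CTSK.

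CA2, the carbonic anhydrase that supplies protons to the pump, was 7.88 to 8.76 in MMP9-high tumors, against 3.83 to 8.24 in MMP9-low tumors, with tumors 5 and 11 lowest and the groups overlapping (difference 1.59 ± 0.77, adjusted p = 0.667, and 0.87 without tumor 5). SNX10, a sorting nexin whose loss in people causes osteopetrosis, was 6.21 to 8.65, against 5.89 to 6.75 (1.0 ± 0.40, adjusted p = 0.588). The chloride exchanger CLCN7 differed by 0.35 ± 0.26, and TNFRSF11A, the receptor RANK, by 0.29 ± 0.18. Their MMP9-high and MMP9-low means were 4.57 and 4.22, and 5.40 and 5.11, where the array median averaged 4.85 and 4.87. ITGAV and ITGB3, the chains of the integrin that anchors osteoclasts to bone, differed by 0.44 ± 0.32 and -0.12 ± 0.36, and the transcription factor MITF by -0.04 ± 0.45. None of these 5 had groups that were apart, and the sign of ITGB3 and MITF depended on the model, being positive for ITGB3 with the 5′ index (0.32).

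The vacuolar proton pump has a catalytic head outside the membrane and a membrane sector, and resorbing osteoclasts carry it on their surface. Of 23 measured genes of the pump and lysosome, 0 were called by limma, 12 had an unadjusted p under 0.05 and were higher (against 6.35% of all genes), 0 were lower with such a p, and 7 had groups that did not overlap, with the MMP9-high tumors above (against 1.33%). The median difference was 0.65, and 0.57 to 0.75 when single tumors were left out. Within it, the 12 subunits and accessory proteins of the pump had a median of 0.87, with 11 positive (against 3503 of 6539 genes) and 10 higher at an unadjusted p under 0.05 (against 6.35%). The 11 other lysosomal genes had a median of 0.22, with 6 positive, near the share of all genes. Of them 2 were higher at such a p (against 6.35%), and for 1 the groups did not overlap (against 1.33%). The split between these subsets was made after the values were seen and was not tested. With the 5′ index the medians were 0.89 and 0.17.

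ATP6V1B2, a subunit of the catalytic head, was 10.95, 10.43, 10.72, 9.75 and 10.09 in MMP9-high tumors, against 9.11, 9.04, 8.37, 8.94 and 8.93 in MMP9-low tumors. It differed by 1.51 ± 0.23 (adjusted p = 0.105) and the groups were apart. ATP6V1G1, a stalk subunit, was 11.46, 11.14, 11.16, 10.80 and 10.85, against 9.86, 10.24, 10.13, 10.04 and 10.36 (0.96 ± 0.15, adjusted p = 0.0919). Both also passed at adjusted p = 0.0225 and 0.0271 when all 15 tumors entered the fit in 3 groups (ranges over 22 alternatives 0.0225 to 0.508 and 0.0271 to 0.508). ATP6V1C1 differed by 1.21 ± 0.33, ATP6V1F by 0.93 ± 0.19, the accessory protein ATP6AP1 by 0.93 ± 0.21, the proteolipid ATP6V0C by 0.90 ± 0.18 and ATP6V1E1 by 0.84 ± 0.15. ATP6V1D (0.78 ± 0.29), ATP6V0E1 (0.65 ± 0.21) and ATP6V0D1 (0.56 ± 0.14) differed less. ATP6V0D1, the widely made form of the d subunit, takes the same place in the pump as ATP6V0D2.

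Among the other lysosomal genes, the sterol carrier NPC2 differed by 1.21 ± 0.25 and beta-galactosidase, GLB1, by 1.03 ± 0.34, neither passing adjustment (adjusted p = 0.211 and 0.474). The cathepsins CTSB and CTSS, made by macrophages among other cells, differed by -0.43 ± 0.41 and -0.78 ± 0.46, with an opposite sign on 2 further CTSS probe sets.

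**Figure D3:**
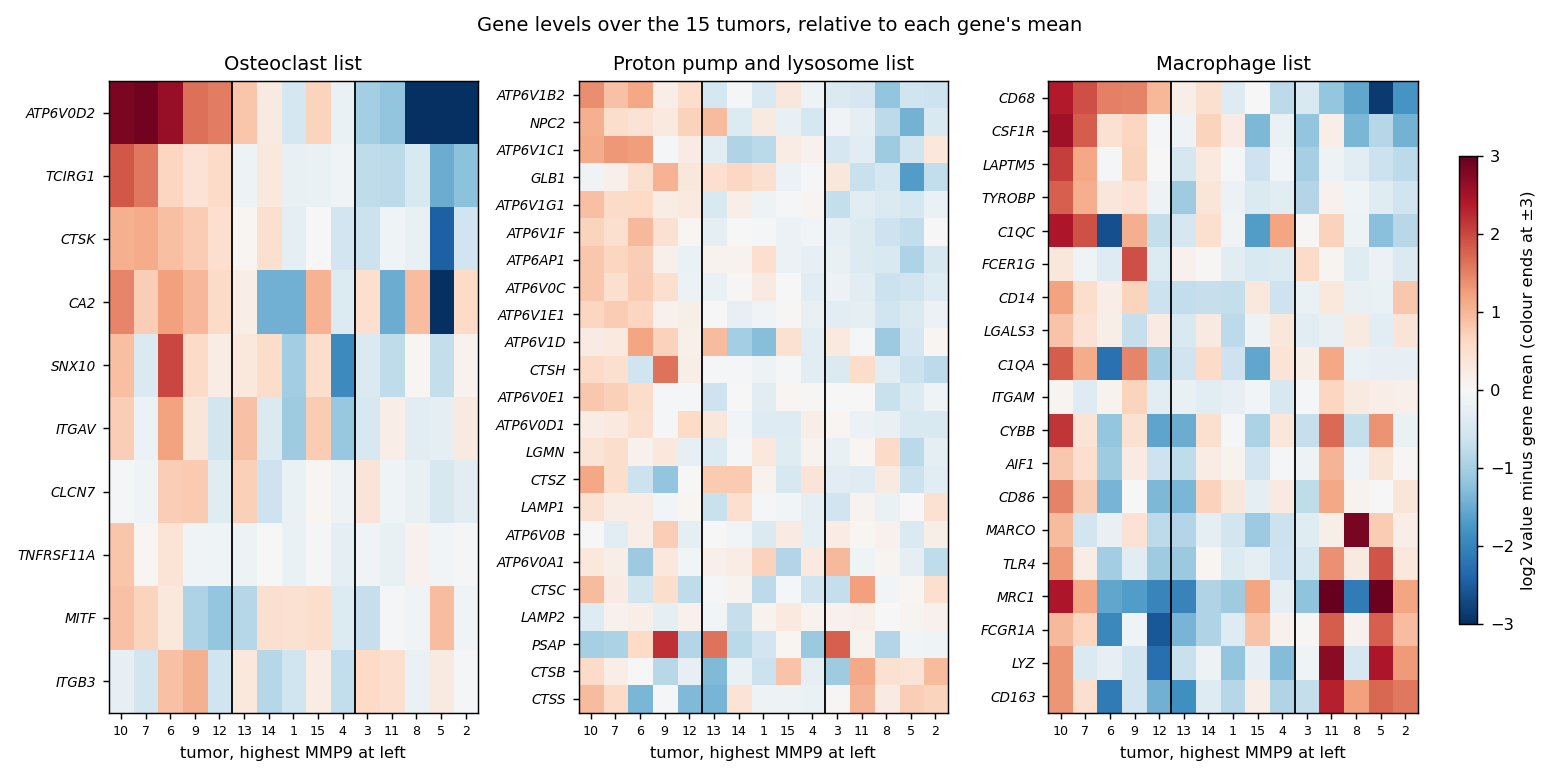
Level of each gene relative to its own average in the 15 tumors (colour, log2) for the measured genes of the osteoclast, pump and lysosome, and macrophage lists (down the page), in tumors ordered by MMP9 with the highest at left. Black lines bound the MMP9-high and MMP9-low tumors. The pump genes are mostly above their means in tumors 10, 7 and 6, and macrophage genes such as CD163 and MRC1 do not follow MMP9.

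Genes of monocytes and macrophages, which share precursors with osteoclasts, were split. Of 19 measured macrophage genes, 1 was called (CD68), against 6 of all 6539 genes, and 9 had a positive difference (against 3503 of 6539). At an unadjusted p under 0.05 in limma, 4 were higher (against 6.35% of all genes) and 1 lower (against 4.19%). The median difference was -0.21. The sign of the median turned with single tumors, since it was 0.18 without tumor 12, 0.13 without tumor 11, 0.07 without tumor 6 and -0.31 without tumor 10. The mean level of the list was 6.74 to 9.05 in MMP9-high tumors and 7.15 to 8.50 in MMP9-low tumors. CSF1R, the receptor for the growth factor of monocytes and osteoclast precursors, was 11.60, 10.87, 9.53, 9.71 and 9.03 in MMP9-high tumors, against 7.88, 9.27, 7.70, 8.21 and 7.65 in MMP9-low tumors, with only tumor 12 below tumor 11 (2.01 ± 0.51, adjusted p = 0.311). LAPTM5 differed by 1.35 ± 0.38 and the signalling adaptor TYROBP by 1.07 ± 0.35, and neither passed. The scavenger receptor CD163 differed by -1.70 ± 0.73, lysozyme, LYZ, by -1.59 ± 0.78, the Fc receptor FCGR1A by -1.54 ± 0.72 and the mannose receptor MRC1 by -1.26 ± 1.31, which was -0.53 without tumor 11 and -0.76 without tumor 5. CD163 was highest in MMP9-low tumor 11 (9.89) and CD14 differed by 0.29 ± 0.34. Of the MMP9-high tumors, tumor 10 was the highest for CSF1R, LAPTM5, TYROBP, CD163, LYZ, FCGR1A and MRC1. TREM2 and FCER1G, listed with TYROBP among osteoclast differentiation signals, differed by 0.04 ± 0.23 and 0.33 ± 0.43.

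Genes were ranked by Pearson's r with MMP9 over the 15 tumors, a description that includes the 10 tumors of the comparison. ATP6V0D2 had the highest r of all 6539 genes (0.958), followed by CD68 and DPP4 (both 0.919), HYAL1 (0.870), the lysosomal growth factor progranulin, GRN (0.857), IFFO1 (0.849), TCIRG1 (0.845), the hematopoietic GTPase RAC2 (0.842), ATP6AP1 (0.820) and NPC2 (0.819). CTSK ranked 23rd (0.781). RAC2, which remodels actin in osteoclasts and leukocytes, was 11.12, 10.07, 9.87, 9.24 and 9.43 in MMP9-high tumors, against 7.54, 7.99, 6.41, 8.0 and 6.91 in MMP9-low tumors. It differed by 2.58 ± 0.41 with groups apart, and limma's adjusted p was 0.123 (range over 22 alternatives 0.0104 to 0.508). GRN differed by 1.65 ± 0.36 (adjusted p = 0.249).

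The genes of bone formation and their matrix were described next, because osteoclasts and osteoblasts signal to each other. All 11 measured osteoblast and bone matrix genes had a positive difference (against 3503 of 6539 genes), with a median of 0.82 (0.48 with the 5′ index, and 0.59 without tumor 5), but 0 were called by limma and only SPP1 had an unadjusted p under 0.05. Osteopontin, SPP1, which osteoblasts, osteoclasts and macrophages secrete, was 11.99, 11.60, 12.15, 12.09 and 10.63 in MMP9-high tumors, against 11.83, 9.92, 10.61, 9.91 and 10.37 in MMP9-low tumors. Tumor 3, nearest to the border, was as high as the MMP9-high tumors, and the difference was 1.16 ± 0.41 (adjusted p = 0.507). The parathyroid hormone receptor PTH1R differed by 2.11 ± 1.0, and by 3.14 without tumor 3. The alkaline phosphatase ALPL differed by 0.95 ± 0.70 and osteocalcin, BGLAP, by 0.67 ± 0.32. The other BGLAP probe set differed by more, 2.50, so the size for osteocalcin depended on the probe set. COL1A1, a chain of type I collagen, was 12.76 to 13.95 in MMP9-high tumors, 9.58 in tumor 5 and 13.06 to 13.91 in the other MMP9-low tumors, and the difference was 0.82 ± 0.75 with it and 0.03 without it.

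Genes of a broader extracellular matrix list, with fibrillar collagens and laminin chains among them, mostly lay the other way. Of 25 measured extracellular matrix genes, 4 had a positive difference (against 3503 of 6539 genes) and 0 were called by limma. At an unadjusted p under 0.05, 3 were lower (against 4.19% of all genes) and 0 higher. The median was -0.71 (-0.73 with the 5′ index). When single tumors were left out the median ran from -1.24 without tumor 9 to -0.45 without tumor 12. The microfibril protein MFAP5 was 7.77, 6.86, 6.36, 4.66 and 4.51 in MMP9-high tumors, against 6.61, 10.74, 11.39, 10.09 and 10.54 in MMP9-low tumors. Of the MMP9-low tumors only tumor 3 was low, and the difference was -3.84 ± 0.95 (adjusted p = 0.304, and 0.0564 without tumor 3, range over 22 alternatives 0.0363 to 0.616). COL14A1 differed by -1.75 ± 0.65 and the laminin chain LAMC1 by -1.61 ± 0.67, which was -0.81 with the 5′ index. COL3A1 differed by -1.29 ± 0.73.

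Inflammatory messengers were split, and 4 of them had large negative differences. Of the 16 measured, 0 were called by limma. At an unadjusted p under 0.05, 4 were lower (against 4.19% of all genes) and 1 higher (against 6.35%). The list's median was -0.11, which was 0.01 with the 5′ index, 0.02 without tumor 5 and 0.01 without tumor 12. A positive difference was found for 7 (against 3503 of 6539 genes). Of these, the chemokines CXCL10 (1.86 ± 0.99) and CCL5 (1.29 ± 0.61), attractants of T cells, had the largest (limma adjusted p = 0.698 and 0.651). Cyclooxygenase 2, PTGS2, was 5.70, 5.16, 3.04, 4.17 and 5.49 in MMP9-high tumors, against 6.98, 6.75, 6.74, 10.39 and 8.65 in MMP9-low tumors, so the groups did not overlap (-3.19 ± 0.79, adjusted p = 0.301). The monocyte chemokine CCL2 was 8.59, 7.73, 5.94, 8.40 and 6.58 in MMP9-high tumors, against 9.35, 11.89, 9.72, 12.46 and 9.37 in MMP9-low tumors (-3.11 ± 0.76, adjusted p = 0.301). IL6 differed by -3.71 ± 1.30 and CXCL8 by -3.08 ± 0.91. Tumor 5 was highest of the MMP9-low tumors for PTGS2, CCL2, IL6 and CXCL8, and a tumor between the groups, tumor 15, was high for PTGS2 (11.65), CCL2 (12.12), IL6 (11.93) and CXCL8 (12.76). These 4 genes did not decline steadily along MMP9. The other 4 tumors between held 3.60 to 5.74 for PTGS2, 6.78 to 7.08 for CCL2, 3.29 to 3.93 for IL6 and 4.13 to 6.07 for CXCL8.

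**Figure D4:**
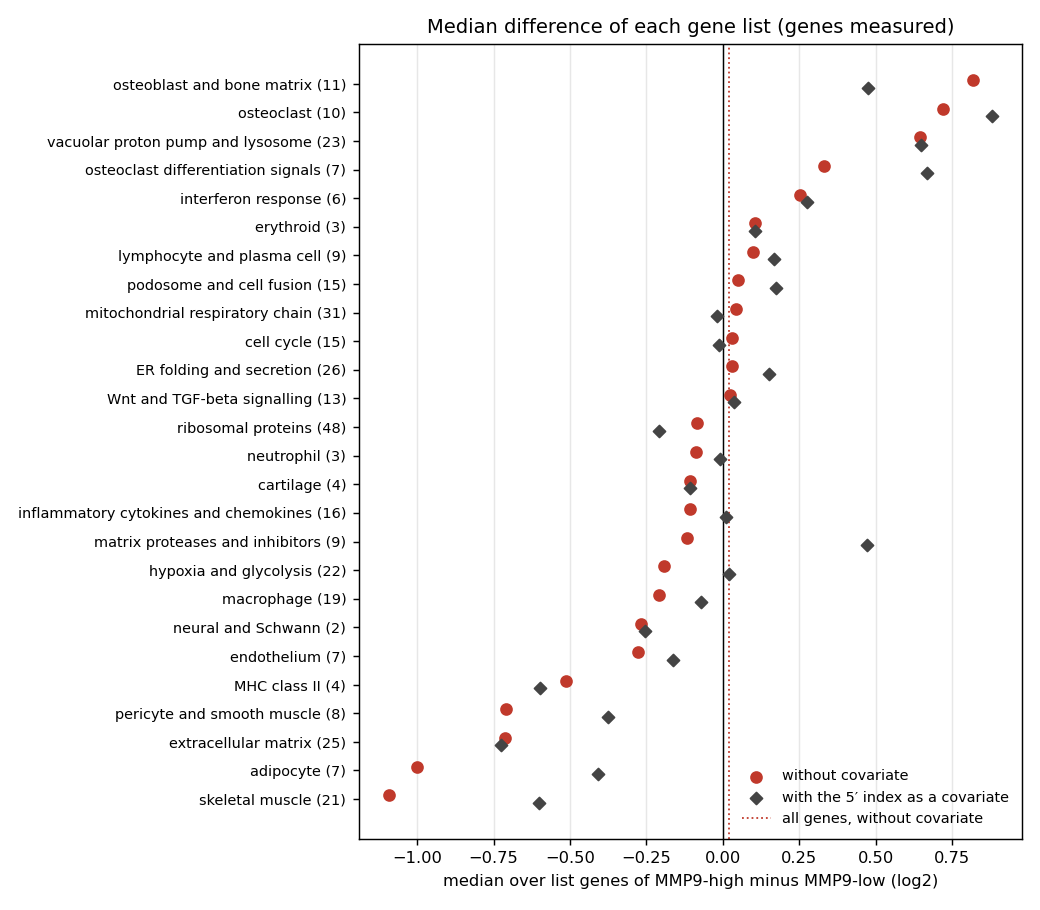
Median over the measured genes of each list of the difference MMP9-high minus MMP9-low on the log2 scale (x axis), without a covariate (circles) and with the 5′ index (diamonds), for 26 lists with the number of genes measured (y axis). Without the covariate the osteoblast, osteoclast and pump lists have the largest positive medians (0.82, 0.72 and 0.65) and the skeletal muscle and adipocyte lists the largest negative ones, and with the 5′ index the osteoclast list (0.88) and the extracellular matrix list (-0.73) lie farthest out.

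The remaining lists held no called gene. Of 7 endothelial genes 1 was lower at an unadjusted p under 0.05 (against 4.19% of all genes), VWF, for which 2 of 4 probe sets had a positive difference, and PECAM1 differed by -1.53 ± 0.69. Skeletal muscle and adipocyte genes had medians of -1.09 and -1.0, which became -0.09 and -0.15 without tumor 5, and genes of pericytes and smooth muscle -0.71 and -0.34. MYL2, a myosin light chain of muscle, was 4.45 to 4.88 in MMP9-high tumors, 12.89 in tumor 5 and 4.51 to 6.61 in the other MMP9-low tumors. Secreted WIF1, an inhibitor of Wnt signals, was 10.84 to 13.24 in MMP9-high tumors, against 4.09 to 11.63 in MMP9-low tumors (3.91 ± 1.28, adjusted p = 0.474). TGFB1, which resorption releases from bone, was 7.42 to 9.50, against 6.35 to 9.07 (1.35 ± 0.53, adjusted p = 0.583), and the collagenase MMP13 was 6.89 to 13.35, against 3.68 to 11.61 (3.04 ± 1.71, adjusted p = 0.717). Only tumor 3 among the MMP9-low tumors exceeded any MMP9-high tumor for WIF1. In the cell cycle list FOXM1 and AURKA differed by 0.84 ± 0.42 and -0.57 ± 0.56, with a list median of 0.03, which was 0.36 without tumor 3 and -0.33 without tumor 5.

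In the other lists the 2 genes with the largest differences were as follows. The cartilage genes COMP and ACAN differed by -1.61 ± 0.83 and 0.91 ± 0.74 (ACAN by 0.42 without tumor 5), and the neutrophil genes BPI and CXCR2 by -0.61 ± 0.68 and -0.09 ± 0.15. The MHC class II genes DLA-DRA and DLA-DQB1 differed by -0.71 ± 0.74 and -0.51 ± 0.80. Among lymphocyte and plasma cell genes, JCHAIN differed by 1.30 ± 0.91 and CD3D by 0.80 ± 0.44, and both were highest in tumor 10 (11.31 and 7.20). The interferon-induced MX1 and ISG15 differed by 1.35 ± 0.68 and 1.04 ± 0.50, with tumor 9 highest for both (10.06 and 8.66). The hypoxia-induced ADM and ANKRD37 differed by -2.40 ± 0.79 and -1.21 ± 0.47. The respiratory chain genes NDUFB9 (0.85 ± 0.32) and CYC1 (0.39 ± 0.33) and the ribosomal protein genes RPS24 (-0.77 ± 0.26) and RPL21 (-0.60 ± 0.41) had overlapping groups. Of 48 ribosomal protein genes, 4 were lower at an unadjusted p under 0.05 (against 4.19% of all genes). For 2, RPL7 among them, the groups did not overlap, with MMP9-high tumors lower (against 0.673%). The erythroid genes GYPC and GATA1 differed by 0.26 ± 0.17 and 0.11 ± 0.13, PMP22 and S100B of Schwann cells by -0.49 ± 0.19 and -0.05 ± 0.41, and the adhesion receptor CD44 by -1.37 ± 0.63, which was -0.86 without tumor 5. None of these passed adjustment in limma.

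The covariate left the differences of the called genes with a symbol near their size and moved others more. List medians stayed close for the pump and lysosome (0.65 and 0.65) and extracellular matrix (-0.71 and -0.73). They moved from 0.82 to 0.48 for osteoblast, -1.09 to -0.60 for skeletal muscle and -1.0 to -0.41 for adipocyte genes. For matrix proteases and their inhibitors the median turned from -0.12 to 0.47. For ATP6V0D2, CD68, DPP4, HYAL1, SPINK2 and ELMOD3 the difference with the 5′ index was within 1 SE of that without it. WIF1 was 5.28 ± 0.95 with it, and MMP13 4.43 ± 1.61. The chaperone HSPA5 was 7.12, 6.65, 10.05, 10.75 and 7.35 in MMP9-high tumors, against 10.82, 10.48, 6.65, 10.16 and 11.14 in MMP9-low tumors, so that the arrays with low 5′ signal (10, 7, 12 and 8) were all low. Its difference was -1.47 ± 1.06 without the covariate and -0.07 ± 0.40 with it. PDIA3 was similar, at -1.36 ± 1.04 and -0.16 ± 0.69. Among tumors with full 5′ signal alone, 2 MMP9-high (6 and 9) and 4 MMP9-low (3, 11, 5 and 2), ATP6V0D2 differed by 4.43 and CTSK by 1.78, and limma called 1 probe set of the array, which was among the 11. That fit had few samples, and 3 of 5 MMP9-high tumors could not enter it.

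**Figure D5:**
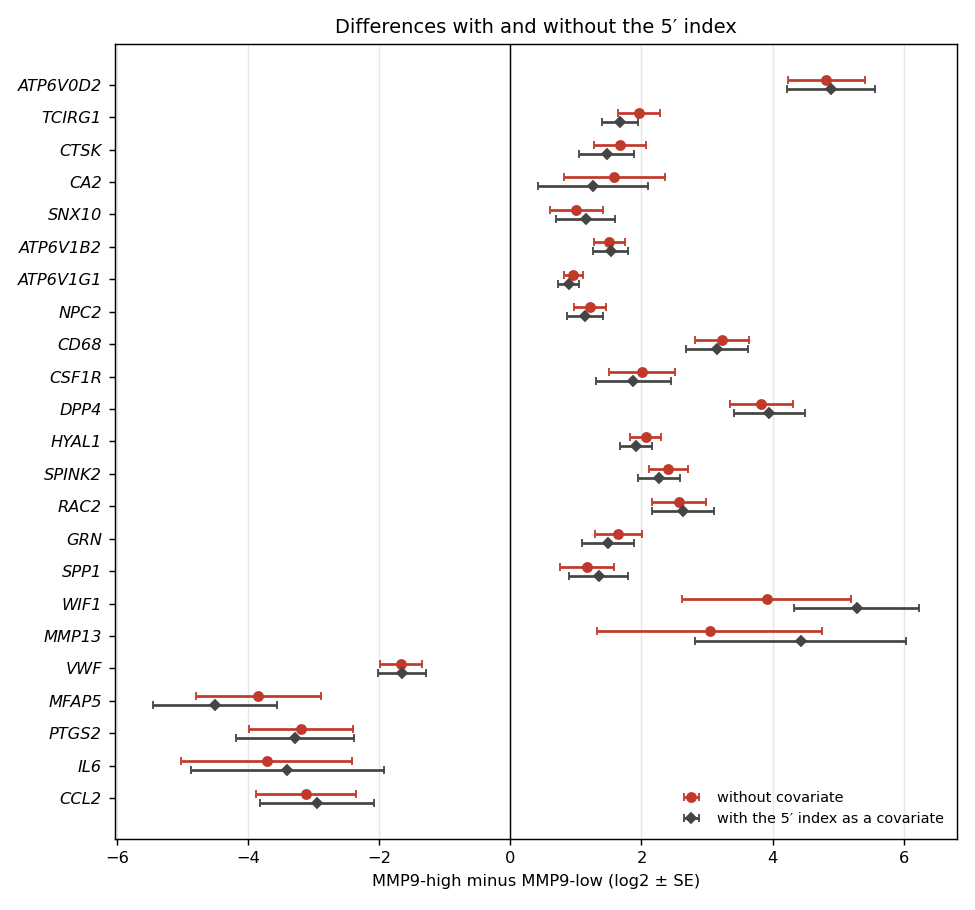
Difference MMP9-high minus MMP9-low on the log2 scale with its SE (x axis) for 23 named genes (y axis), in limma without a covariate (circles) and with the 5′ index as a covariate (diamonds), 5 tumors in each group. The 2 estimates lie near each other for ATP6V0D2, CD68, DPP4 and HYAL1 and apart for WIF1 and MMP13.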

How the data were processed

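RNA of tumors, normal organs and cell lines was labelled by the Affymetrix one-cycle protocol and hybridized to canine genome arrays as 1 group at a single core facility. The authors summarized probe intensities by RMA (background correction, quantile normalization, median polish), and the deposited values are log2 expression of 23913 probe sets, from 2.52 to 14.2. RMA compresses dim values and quantile normalization removes any change in total RNA. Arrays hold no read depth. Precision is limited by their number. Control probe sets (77) and the 3 for MMP9 were left out. Genes were named from probe sets with 1 symbol in the platform annotation (10546; 138 had several and 13149 none), and each of the 6539 genes was represented by its brightest probe set.

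The 5 tumors with the highest and the 5 with the lowest MMP9 were compared in limma 3.58.1 (R 4.3.3; lmFit, eBayes, two-sided, Benjamini-Hochberg adjustment over 23833 probe sets, threshold 0.05), after a test on simulated data. The labels do not say that tumors came from separate dogs, so p-values measure the spread between these samples. Members and gene lists were chosen with earlier results of these data known. Named genes were those called with the largest differences (up to 15 each way, filled to 10 by the smallest p), all measured osteoclast genes, and of each other list the called genes or the 2 with the largest difference. Of the genes named beyond that rule, 31 were chosen after their values were seen. Alternatives changed the 5′ or Dap terms, the samples, the normalization, the filter, the threshold and the estimate of the spread.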

Additional observations from a re-analysis of the deposited data

Results flagged for a closer look

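Among 212 groups of 5 tumors (106 named genes, MMP9-high and MMP9-low each), 17 held a tumor whose gap to its nearest neighbour took more than 0.71 of the group's range, Dixon's 95% limit. Chance alone gives this in about 1 in 20 groups. No cause was tested.

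Among MMP9-high tumors, tumor 10 was apart for GRN (11.24, others 9.959 to 10.32), tumor 12 for ALPL (7.841, others 5.041 to 5.744), tumor 6 for ADIPOQ (5.706, others 4.188 to 4.593), and tumor 7 for PMP22 (6.66, others 6.07 to 6.163) and S100B (4.997, others 3.469 to 3.591).

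Tumor 5 of the MMP9-low tumors was apart for MYL2 (12.89, others 4.508 to 6.614), CTSK (9.34, others 11.14 to 11.64), COL1A1 (9.577, others 13.06 to 13.91), COL1A2 (12.01, others 13.63 to 13.82) and S100B (5.261, others 3.454 to 3.686). It had muscle and fat genes at high levels and bone genes at low ones. Tumor 3, the MMP9-low tumor nearest to the border, was apart for PTH1R (10.56, others 4.739 to 6.16), ALPL (7.083, others 3.975 to 4.574), TGFB1 (9.065, others 6.346 to 7.08) and MFAP5 (6.606, others 10.09 to 11.39). On these genes it lay on the side of the MMP9-high tumors. Tumor 8, the MMP9-low array with low 5′ signal, was apart for HSPA5 (6.646, others 10.16 to 11.14), ATP6V1B2 (8.374, others 8.928 to 9.108) and TSNAX (3.455, others 3.791 to 3.916).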

How the results depend on the processing

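The count of 11 probe sets higher and 0 lower was small and moved with the processing. It was 0 higher with the 5′ index as a covariate, with the class of 5′ signal or of the Dap spike as a block, and at adjusted p under 0.01, 1 among tumors with full 5′ signal alone and 3 after quantile normalization over the 15 tumors. It was 22 with all 15 tumors in 3 groups, 17 higher and 8 lower with MMP9 as a continuous variable, and 19 higher and 15 lower when the 5′ index was added to that fit, an alternative chosen after seeing the data. Leaving out 1 tumor at a time gave 0 to 14 higher and 0 to 6 lower. Array medians subtracted (9), a filter on dim probe sets (11) and a trended spread (10) left it within 1.5 times. All 11 kept their sign in each of these fits. The continuous and 3-group fits use more tumors, and the others fewer samples or another term, and the cause of each change was not tested. The fit of tumors with low 5′ signal alone was not run, since 1 MMP9-low tumor had it.

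Signs of genes with small differences turned. ITGB3 was 0.318 with the 5′ index, 0.312 with its class as a block, 0.641 among tumors with full 5′ signal, 0.047 with the Dap block and 0.058 in the continuous fit with the index, and -0.355 to 0.061 with 1 tumor left out. MITF was 0.193 with the Dap block, 0.047 as the mean of its probe sets and -0.266 to 0.245 with 1 tumor left out. Among tumors with full 5′ signal TIMP3 was -0.848, ACAN -0.195 and CXCR2 0.09. With the Dap block S100B was 0.05 and TREM2 -0.055, and TREM2 was -0.004 in the continuous fit with the index. With 1 tumor left out DLA-DQB1 was -1.101 to 0.048, S100B -0.337 to 0.295, TREM2 -0.15 to 0.157, FCER1G -0.081 to 0.503 and COL1A2 -0.08 to 0.373. ATP6V0D2, DPP4, CD68, SPINK2 and HYAL1 had an adjusted p under 0.05 in 8 of 22 alternatives each and ELMOD3 in 2, with the same sign in 22.

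No paired analysis was possible because the compared tumors are single samples of different numbers, and the numbers only follow the order of submission. RMA compresses the differences of dim genes.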
